A study of Mus musculus with 30 samples.

Results

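Skeletal muscle of male C57BL/6J mice was compared between calorie restriction (CR) and the standard diet (SD), with 5 arrays per diet. These are 10 of the 30 arrays of a study that also profiled the liver and a diet containing SRT2104, a small molecule described as an activator of the deacetylase SIRT1. Of 25697 probes on the Illumina mouse bead arrays, 10792 were kept because they were detected (detection p under 0.02) on at least 5 of the 15 muscle arrays, and they covered 7752 of the 16593 genes with a probe of their own. Each gene was read from its brightest kept probe unless another probe is named.

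All mice ate the AIN-93G diet, in which carbohydrate, protein and fat supplied 64, 19 and 17% of the energy, and the diets began at 28 weeks of age. The SD mice ate freely, and the CR mice had their intake cut by 40%. The labels give the CR mice an age of 41 weeks at sampling and 14 weeks of restriction, whereas those of the SD mice speak of the end of life. The methods and the design text give a single age and diet time for all array groups, at odds with the SD labels. The SRT2104 mice received SD with 1.33 g of compound per kg of chow, for a daily intake near 100 mg per kg, and enter here mainly through the shared estimate of spread. The methods state that the longevity animals were not fasted before sacrifice. Which muscle was taken for the arrays, the hour of sampling and the time since the last meal are not given in the sources used here. Diet therefore cannot be told apart from a difference in sampling hour or feeding state. If the labels are right, it cannot be told apart from age at sampling or time on the diet either.

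Calorie restriction means eating less without malnutrition, and in rodents it lengthens life and lowers insulin and body fat. Skeletal muscle takes up much of the glucose that insulin clears and holds a circadian clock in which ARNTL (BMAL1) and CLOCK switch on genes through E-boxes, PER and CRY proteins shut ARNTL and CLOCK down, and REV-ERB receptors repress Arntl in a second loop. Restricted mice commonly eat their ration at once when it is given, and feeding time sets the phase of clocks outside the brain.

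Markers matched the tissue label. Of 15 markers of muscle fibers 14 were kept. Their summed levels, on the linear scale, overlapped between the diets over the 8 SD and CR arrays of the reduced fit described next. They ran from 313600 to 403600 on SD and from 319000 to 421400 on CR. Left out of that fit, SD replicate 1 was lower, at 159700, and CR replicate 3 was higher, at 435900. Markers of other cells were mixed. The liver marker Alb and the leukocyte markers Ptprc and Cd3e were detected on none of the 10 arrays, whereas Hp of the hepatocyte list and the macrophage markers Adgre1, Cd14 and Lyz2 were detected on all 10. Apoa1 and Ambp were detected on 0 SD and 3 CR arrays, and Apoc3 and Ahsg on 0 SD and 2 CR arrays. The 8 kept hepatocyte genes of a list of 14 were all higher on CR over 12 arrays. Their median change was 0.23 (0.13 without CR replicate 2), and none passed. Apoa1, Ambp, Apoc3 and Ahsg passed the detection filter only through CR and SRT2104 arrays. That filter by itself favors a higher level on CR, so the shared direction is no evidence of a change. The summed linear level of the 8 genes over all 10 arrays was 1249 to 1757 on SD and 1320 to 5899 on CR.

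Some arrays stood apart from the rest. 1 CR array detected 26.7% of probes, against 39.7 to 41.8% on the other CR arrays and 38.5 to 43.1% on the SD arrays, and its replicate number is not shown by the signal table. The median correlation of CR replicate 3 with its own group was 0.811, that of SD replicate 1 was 0.966, and those of the other SD and CR arrays lay between 0.964 and 0.992. SRT2104 replicate 3, part of the 15-array fit, had a median correlation of 0.903 with its own group. Its summed linear level of hepatocyte markers was 183400, against at most 2271 on the other SRT2104 arrays. The study's own calculations leave out CR replicate 3, SD replicate 1 and 1 SRT2104 array. Every test was therefore made over all 15 muscle arrays and again over 12, without SD replicate 1, CR replicate 3 and SRT2104 replicate 3. Among the SD and CR arrays, CR replicate 2 was the highest for several cell type markers, described with the adipocyte genes. The median signal of undetected probes lay between 123 and 132 on the SD arrays and between 112 and 116 on the CR arrays, with no overlap. On the SRT2104 arrays it lay between 113 and 116, so the SD arrays had a higher background than both other groups. The part of this background in the results was not tested beyond the alternative background correction.

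Over 15 arrays, 49 of 10792 probes (0.454%) passed the limma test at an adjusted p under 0.05, 6 higher (0.0556%) and 43 lower (0.398%) on CR. Over 12 arrays 219 probes passed (2.03%), 48 higher (0.445%) and 171 lower (1.58%). Of the 49 probes, 47 passed over 12 arrays with the same direction. As genes, 33 of 7752 (0.426%) passed over 15 arrays, 4 higher (0.0516%) and 29 lower (0.374%), and 148 (1.91%) over 12, 34 higher (0.439%) and 114 lower (1.47%). The balance moved with the scaling and with the arrays used. After quantile normalization 23 probes passed over 15 arrays, 6 higher and 17 lower. The share of higher calls was then 26.1% against 12.2% on the main scale, with the number of higher calls unchanged. It was 14.3% with median scaling, and 36.4% on the main scale without SD replicate 2 (4 higher and 7 lower). The median change of all genes was 0.05 over 15 arrays and 0.01 over 12, on the log2 scale. All changes below are CR minus SD in log2 units, and all adjusted p-values come from limma across the 10792 probes. By the rule for named genes, 4 genes rose (G0s2, Ier3, Per2 and Hey1) and 26 fell in both fits with no overlap between the 4 SD and 4 CR arrays. Such a gap between the diets was seen for 9.46% of all probes over those 8 arrays and for 3.38% over all 10.

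Nr1d1 showed the lowest adjusted p of the named genes in both fits. It encodes REV-ERB alpha, the receptor that represses Arntl. Its log2 levels on SD were 9.70, 9.65, 9.62, 9.42 and 10.09 in replicates 1 to 5. On CR they were 8.13, 7.85, 7.94, 8.27 and 7.98. Every CR array lay below every SD array, including both arrays that the reduced fit leaves out. Nr1d1 fell by 1.66 on the log2 scale over 15 arrays (SE 0.13, adjusted p = 1.37e-05), a 3.17-fold lower level, and by 1.64 over 12 (SE 0.13, adjusted p = 0.000114). Its second probe fell in both fits, by 1.09 and 1.20. No single array decided the call, as the adjusted p stayed between 1.81e-05 and 0.00107 whichever of the arrays was removed from either fit.

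Per2, a repressor that acts with CRY proteins on ARNTL and CLOCK, moved the other way. Its levels on SD were 8.49, 8.59, 8.70, 8.83 and 8.56. On CR they were 9.96, 9.69, 10.15, 9.31 and 9.80. The lowest CR array was above the highest SD array, and CR replicate 3 was the highest of all. Per2 rose by 1.15 over 15 arrays (SE 0.15, adjusted p = 0.00494), a 2.22-fold higher level, and by 1.02 over 12 (adjusted p = 0.00559). Both of its kept probes rose in both fits, and the call held without any single array.

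Arntl, the partner of CLOCK, was lower on CR. Its levels on SD were 9.25, 9.07, 8.56, 8.75 and 8.57, and those on CR were 8.05, 7.95, 8.23, 7.99 and 8.16. The groups did not overlap, with SD replicates 3 and 5 the closest to CR. Arntl fell by 0.76 over 15 arrays (SE 0.14, adjusted p = 0.0237) and by 0.70 over 12 (SE 0.12, adjusted p = 0.0144). The call over 15 arrays was lost without any of 6 arrays (SD replicates 2 and 4, CR replicates 1, 2, 4 and 5), with adjusted p up to 0.0915, while over 12 arrays it held without any single array. Of the 3 kept clock activators, only Arntl passed, against 1.47% of genes called lower over 12 arrays. Clock itself had a change of -0.32 (adjusted p = 0.174) and Rora, a receptor that activates Arntl, 0.07 (adjusted p = 0.879).

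**Figure D1:**
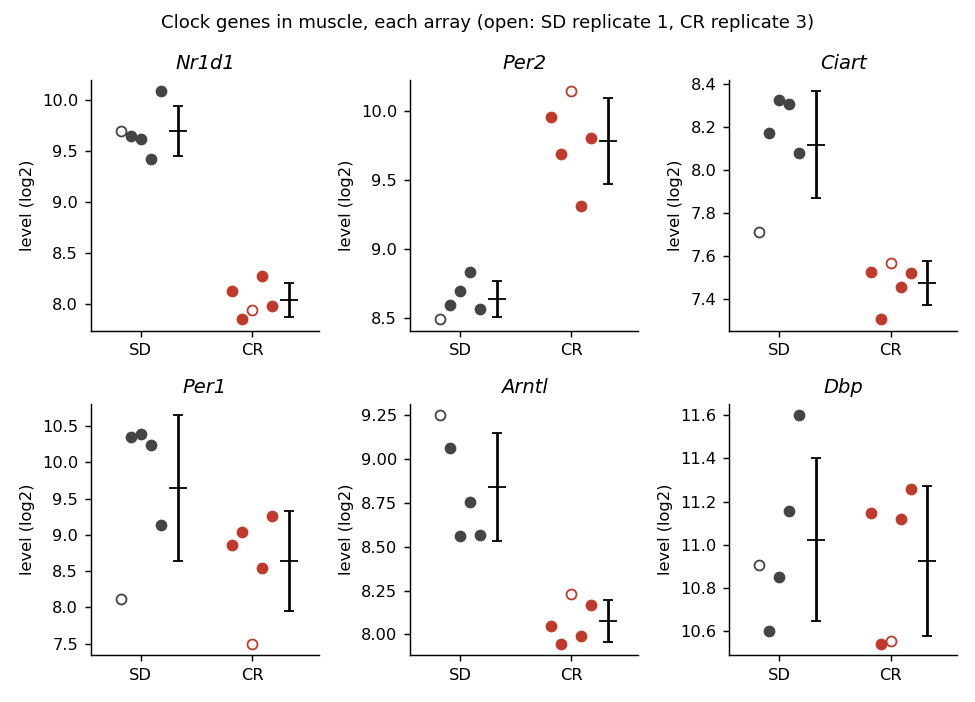
Log2 level (vertical axes) of 6 clock genes on each muscle array by diet (horizontal axes). Filled circles are arrays used in both fits, open circles are SD replicate 1 and CR replicate 3, and bars are the mean ± standard deviation of 5 arrays. The SD and CR arrays of Nr1d1, Per2, Arntl and Ciart are apart, and those of Per1 and Dbp overlap.

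Of the 9 kept clock repressors, 1 was called higher and 4 lower over 12 arrays, against 0.439% and 1.47% of all genes. Besides Per2 and Nr1d1 these were Ciart, Per1 and Csnk1d. Ciart (CHRONO) binds ARNTL and blocks its activity. Its levels on SD were 7.71, 8.17, 8.32, 8.30 and 8.08, against 7.52, 7.31, 7.57, 7.46 and 7.52 on CR. The groups did not overlap, and SD replicate 1 was the SD array closest to CR. Ciart fell by 0.64 over 15 arrays (SE 0.13, adjusted p = 0.0482) and by 0.77 over 12 (SE 0.12, adjusted p = 0.00609). The first call was lost without any of 11 arrays, with adjusted p up to 0.159, while the second held without any single array.

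Per1, which like Per2 represses ARNTL and CLOCK and is also induced by glucocorticoids, differed from Per2 in direction. Its levels on SD were 8.12, 10.35, 10.39, 10.24 and 9.13, against 8.86, 9.04, 7.50, 8.55 and 9.26 on CR. SD replicates 2, 3 and 4 stood high, while SD replicates 1 and 5 lay within the range of the CR arrays. Per1 did not pass over 15 arrays (change -1.004, SE 0.41, adjusted p = 0.403). It fell by 1.10 over 12 (SE 0.24, adjusted p = 0.0331), though SD replicate 5 was below CR replicate 5, and its second probe fell too, by 0.91. That call was lost without any of 5 of the 12 arrays, with adjusted p up to 0.103, and over the 8 SD and CR arrays alone (adjusted p = 0.0762). Csnk1d, a kinase that marks PER proteins for breakdown, fell by 0.52 over 12 arrays (adjusted p = 0.0222) and did not pass over 15 (adjusted p = 0.243) or over 8 (adjusted p = 0.0501). The call over 12 needed SD replicates 4 and 5 and CR replicate 4, since leaving out any of them gave an adjusted p up to 0.0646.

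None of the 4 kept clock output genes (the D-box factors Dbp, Tef and Nfil3, and Usp2, described with the liver) passed in either fit. Dbp, a transcription factor switched on through E-boxes, had levels of 10.91, 10.60, 10.85, 11.16 and 11.60 on SD. On CR its levels were 11.15, 10.54, 10.56, 11.12 and 11.26, within almost the same range. Its change was -0.10 over 15 arrays (SE 0.19, adjusted p = 0.805) and -0.03 over 12 (SE 0.20, adjusted p = 0.955). Tef, a related factor, had a change of 0.45 over 12 arrays (adjusted p = 0.324), and Nfil3, which competes at D-boxes, -0.30 (adjusted p = 0.707).

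Promoter sequence is shown for Ciart and Per1, because these are the fallen clock genes whose start regions hold the E-box letters CACGTG. Both sequences come from RefSeq (GRCm38.p6) and run from 250 bases before to 50 bases after an annotated start of the gene, 5′ to 3′ on the gene's strand. Capitals mark the E-box and, in Per1, the D-box letters TTATGNAA.
Ciart, chr3:95882179-95882478, minus strand: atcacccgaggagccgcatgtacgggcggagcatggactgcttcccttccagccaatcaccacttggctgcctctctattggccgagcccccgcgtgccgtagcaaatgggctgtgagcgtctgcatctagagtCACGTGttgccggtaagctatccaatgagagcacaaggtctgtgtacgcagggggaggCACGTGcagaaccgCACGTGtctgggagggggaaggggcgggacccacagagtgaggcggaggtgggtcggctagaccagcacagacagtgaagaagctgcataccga
Per1, chr11:69098699-69098998, plus strand: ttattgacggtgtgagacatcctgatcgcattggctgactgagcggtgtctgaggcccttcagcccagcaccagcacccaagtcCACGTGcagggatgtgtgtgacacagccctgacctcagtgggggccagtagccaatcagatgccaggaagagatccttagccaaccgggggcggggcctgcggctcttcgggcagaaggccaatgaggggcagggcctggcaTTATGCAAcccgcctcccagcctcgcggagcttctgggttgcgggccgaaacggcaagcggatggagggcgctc
The Ciart window holds 3 E-boxes, at 116, 58 and 44 bases before the start, and the Per1 window holds 1 E-box at 166 bases and 1 D-box at 24 bases before it. A second Per1 start in the table, with its window at chr11:69099902-69100201, holds neither motif. Both motifs were searched on both strands and do not overlap each other. Of the 16 kept clock genes 13 were in the promoter table (Per2, Bhlhe40 and Csnk1d were not), and 3 (Ciart, Per1 and Tef) had a window with an E-box. Of 32851 mouse promoters, counted as single windows, 7.15% held an E-box. Several of the clock genes have more than 1 window and so more chances to match, and the shares differ in unit. The D-box letters were in 3.38% of all promoters. A match describes the letters and is no evidence of binding.

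The same diets were compared in liver, where 26.7% of 11065 probes passed. Nr1d1 was lower on CR in the liver too, by 1.62, and the muscle and liver changes did not differ detectably (difference -0.02 with 12 muscle arrays, SE 0.18, adjusted p = 0.955). Arntl differed between the tissues: its change was 0.16 in liver, and the muscle minus liver difference passed with 15 muscle arrays (-0.92, adjusted p = 0.00496) and with 12 (-0.86, adjusted p = 0.0034). The background for these differences was 4.78% of 8998 probes with 15 muscle arrays and 11.1% with 12. Per2 rose in both tissues, by 2.06 in liver, and the smaller muscle rise differed with 12 arrays (adjusted p = 0.0291) and not with 15 (adjusted p = 0.07). Dbp fell by 1.08 in liver, and its difference from muscle did not pass (adjusted p = 0.0638 with 12 arrays). Usp2, a clock-driven deubiquitinase, rose by 1.52 in liver and had a change of -0.18 in muscle, a difference that passed with 12 arrays (adjusted p = 0.0216) and not with 15 (adjusted p = 0.0584).

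**Figure D2:**
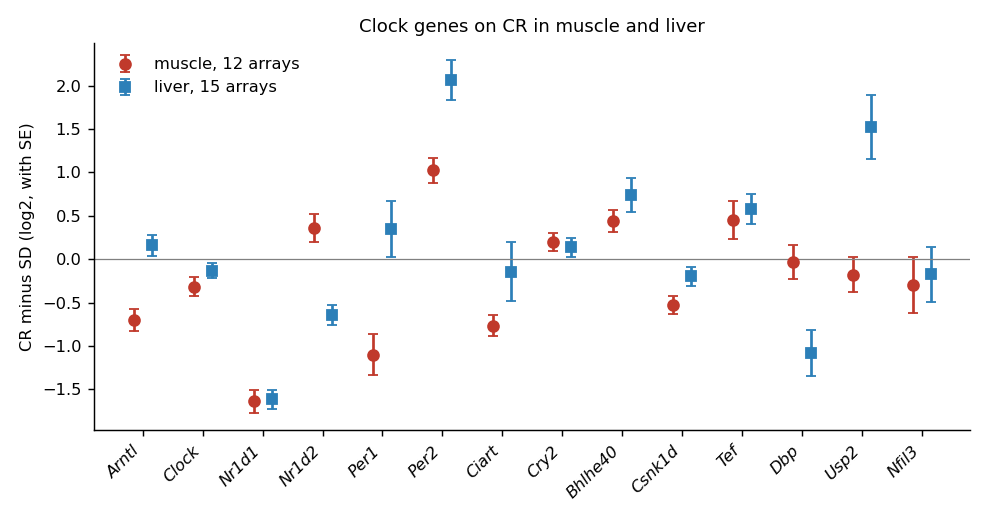
CR minus SD (log2, vertical axis) of the kept clock genes except Rora and Csnk1e (horizontal axis). Values are from the fits over 12 muscle arrays and 15 liver arrays of all 3 diets, with bars of 1 standard error. Nr1d1 sits at nearly the same value in both tissues (-1.64 and -1.62), whereas Arntl is at -0.70 in muscle and 0.16 in liver.

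Relative to SRT2104, CR was lower for Nr1d1 (-1.69), Per1 (-1.57), Ciart (-1.17) and Dbp (-1.09, adjusted p = 0.0010) over 12 arrays. Per2 was higher on CR in that comparison (0.51, adjusted p = 0.0182). Of all probes, 34% passed there (10.7% over 15). The difference in Arntl between CR and SRT2104 did not pass (0.04, adjusted p = 0.808), and its change from SD was -0.70 on CR and -0.74 on SRT2104. These last changes share the SD arrays and are given side by side only.

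G0s2 had the largest rise among the named genes. It encodes an inhibitor of the triglyceride lipase ATGL. Its levels on SD were 8.22, 8.65, 8.82, 8.08 and 9.13, and those on CR were 10.39, 11.36, 9.45, 10.28 and 10.09. All CR arrays were above all SD arrays, with CR replicate 2 highest and CR replicate 3 lowest among them. G0s2 rose by 1.73 over 15 arrays (SE 0.33, adjusted p = 0.0323), or 3.33-fold, and by 1.86 over 12 (SE 0.28, adjusted p = 0.00609). The call over 15 arrays was lost without any of 9 arrays, with adjusted p up to 0.102, and the call over 12 held without any single array. It was the only called gene of the 14 kept genes of lipid droplets and lipolysis. The share of all genes called higher was 0.439% over 12 arrays and 0.0516% over 15. The list's median change was 0.14 over 12 arrays and -0.03 without CR replicate 2.

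Ier3, an immediate early gene and target of NF-kB, was among the genes with the steadiest calls. Its levels on SD were 8.62, 8.95, 9.05, 8.80 and 9.56, against 10.21, 10.41, 10.82, 10.34 and 9.99 on CR. The groups did not overlap. Ier3 rose by 1.36 over 15 arrays (SE 0.18, adjusted p = 0.00494) and by 1.15 over 12 (SE 0.15, adjusted p = 0.00254). It was the only gene called among the 18 kept immediate early genes. Of all genes, 0.439% were called higher over 12 arrays and 0.0516% over 15. The median change of the 18 was 0.13 over 12 arrays, 12 of them being higher on CR. Egr1, a zinc finger factor of the same group, had levels of 10.88, 10.65, 11.05, 11.59 and 12.19 on SD and 12.35, 13.22, 13.04, 12.69 and 12.39 on CR. The Egr1 groups did not overlap, yet its change of 1.29 did not pass (SE 0.37, adjusted p = 0.0938 over 12 and 0.0907 over 15).

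Hey1, a transcriptional repressor downstream of Notch, was higher on CR as well. Its levels were 8.21, 8.53, 8.19, 8.19 and 8.67 on SD, against 9.32, 9.16, 9.36, 8.96 and 9.30 on CR. The groups did not overlap and the spread on CR was small. Hey1 rose by 0.86 over 15 arrays (adjusted p = 0.00711) and by 0.79 over 12 (adjusted p = 0.00609), with no single array deciding either call. Cish, an inhibitor of cytokine signaling induced by STAT5, had levels of 10.17, 8.75, 7.74, 8.42 and 8.77 on SD and 9.59, 9.14, 11.86, 10.70 and 10.49 on CR. SD replicate 1 lay inside the CR range, and CR replicate 3 was the highest. Cish did not pass over 15 arrays (1.58, adjusted p = 0.228) and rose by 1.56 over 12 (SE 0.35, adjusted p = 0.0405), a call lost without any of 9 of the 12 arrays, with adjusted p up to 0.12, and over 8 arrays (adjusted p = 0.0573). Cish was chosen by the study on these arrays. It was the only called gene among 13 kept SOCS members and STAT5-driven genes, against 0.439% of all genes called higher over 12 arrays. Id1, a target of BMP signaling, rose by 0.76 over 12 arrays (adjusted p = 0.0469), a call lost without any of 10 of the 12, with adjusted p up to 0.124, over 8 arrays (0.0862) and over 15 (0.168).

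**Figure D3:**
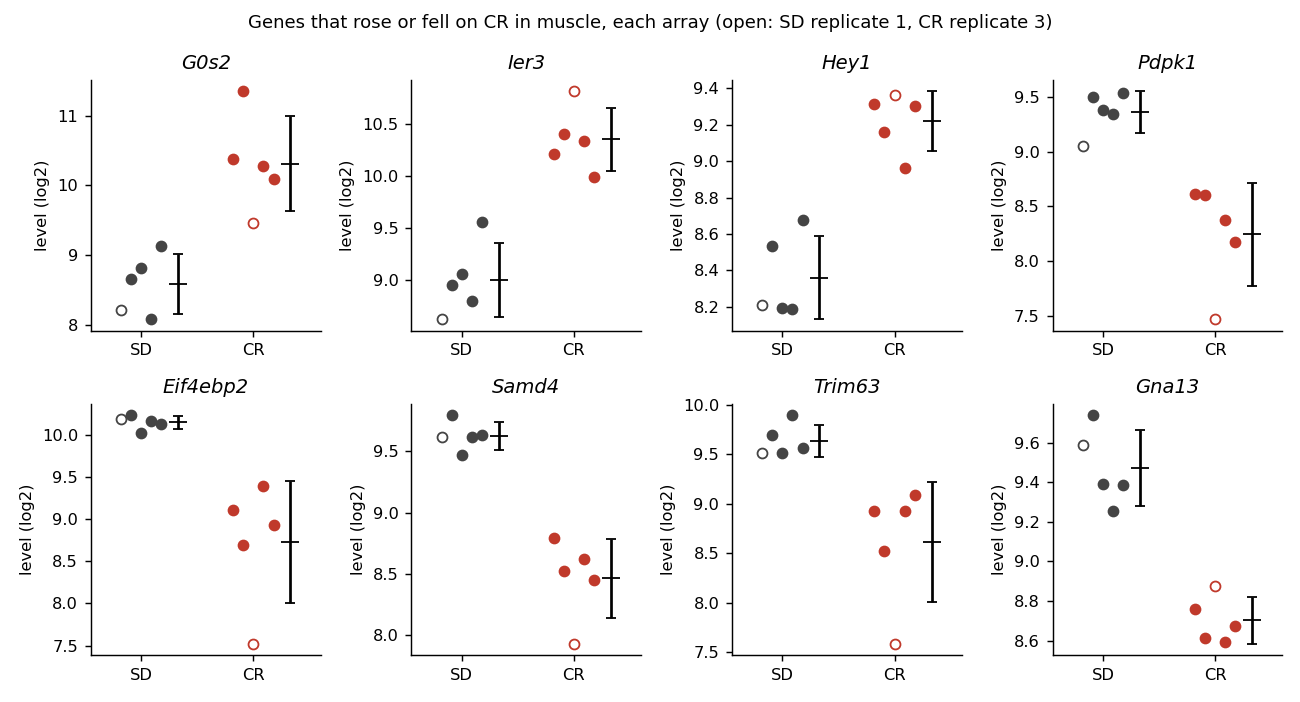
Log2 level (vertical axes) of named genes outside the clock on each muscle array by diet (horizontal axes). Filled circles are arrays used in both fits, open circles are SD replicate 1 and CR replicate 3, and bars are the mean ± standard deviation of 5 arrays. The CR arrays of G0s2 and Ier3 lie above all SD arrays, and those of Pdpk1 and Eif4ebp2 lie below them, with CR replicate 3 lowest.

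Genes of insulin and nutrient signaling were called only as lower. Of 18 kept genes of insulin and IGF signaling, 3 fell over 12 arrays (Pdpk1, Gsk3b and Irs2) and 1 over 15, against 1.47% and 0.374% of all genes. The list's median change was -0.11 over 12 arrays. Pdpk1 encodes the kinase that activates AKT. Its levels were 9.05, 9.50, 9.38, 9.35 and 9.54 on SD, and 8.62, 8.60, 7.47, 8.38 and 8.17 on CR. The groups did not overlap, and CR replicate 3 was far below the other arrays. Pdpk1 fell by 1.12 over 15 arrays (SE 0.19, adjusted p = 0.0198) and by 1.00 over 12 (SE 0.10, adjusted p = 0.000348), and its second kept probe fell in both fits. Its call over 15 arrays was lost without any of 5 arrays, with adjusted p up to 0.075, and over 12 it held without any single array.

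Gsk3b, the kinase that inhibits glycogen synthase until AKT blocks it, fell by 0.69 over 12 arrays (SE 0.11, adjusted p = 0.00609), a call that held without any single array, and had an adjusted p of 0.0727 over 15. Irs2 is a docking protein of the insulin receptor. Its levels were 8.84, 11.10, 10.89, 10.82 and 10.12 on SD, and 9.46, 9.56, 8.65, 9.005 and 9.88 on CR. SD replicate 1 lay within the CR range. Irs2 fell by 1.26 over 12 arrays (SE 0.27, adjusted p = 0.0331) and did not pass over 15 (-1.04, adjusted p = 0.351), and the call over 12 was lost without any of 5 arrays, with adjusted p up to 0.0987.

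Of 18 kept genes of AMPK and mTOR nutrient sensing, 2 fell over 12 arrays and 1 over 15, against 1.47% and 0.374% of all genes, with list medians of -0.05 and -0.08. Eif4ebp2 binds the cap-binding factor eIF4E and holds back translation until mTOR phosphorylates it. Its levels were 10.19, 10.23, 10.02, 10.16 and 10.13 on SD, and 9.11, 8.69, 7.52, 9.39 and 8.92 on CR. The SD arrays lay close together, and the CR arrays were all lower and more spread. Eif4ebp2 fell by 1.42 over 15 arrays (SE 0.27, adjusted p = 0.0309) and by 1.10 over 12 (SE 0.17, adjusted p = 0.00609). The first call was lost without any of 7 arrays, with adjusted p up to 0.101, and the second held without any single array. Prkaa2, the AMPK catalytic subunit that predominates in muscle, fell by 0.92 over 12 arrays (SE 0.14, adjusted p = 0.00609). Over 15 arrays CR replicate 3, at 7.51 against 9.94 on the next lowest CR array, lay far below the rest (-1.44, SE 0.41, adjusted p = 0.181), and its second kept probe did not pass over 12 (-0.59, adjusted p = 0.0844).

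Among 47 kept translation factors, Eif4ebp2 and Eef2 were called over 12 arrays, both lower, and Eif4ebp2 over 15, against 1.47% and 0.374% of all genes. Eef2, the elongation factor, fell by 0.75 over 12 arrays (adjusted p = 0.0358) and did not pass over 15 (adjusted p = 0.346). The call over 12 was one lost without any of 7 of the 12 arrays, with adjusted p up to 0.105. None of the 56 ribosomal protein genes passed in either fit, and their median change was 0.08 over 12 arrays.

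Genes of muscle breakdown were called lower or not at all. The 34 kept proteasome genes, of which none was called, were mostly higher on CR over 12 arrays (28 higher and 6 lower). Of 18 kept ubiquitin ligases and effectors of atrophy, 3 fell over 12 arrays (Trim63, Gadd45b and Cdkn1a) and 1 over 15 (Gadd45b), against 1.47% and 0.374% of all genes. The median was -0.20 over 12 arrays, -0.15 without CR replicate 2 as well, and -0.11 over 15. Trim63 (MuRF1) is the ubiquitin ligase that marks myosin and other thick filament proteins for breakdown. Its levels were 9.51, 9.70, 9.52, 9.89 and 9.56 on SD, and 8.93, 8.53, 7.59, 8.92 and 9.08 on CR. The groups did not overlap. Trim63 did not pass over 15 arrays, where CR replicate 3 was far below the rest (-1.03, SE 0.24, adjusted p = 0.0896), and fell by 0.80 over 12 (SE 0.12, adjusted p = 0.00609), with no single array of the 12 deciding the call. Fbxo32 (atrogin-1), the other ligase that defines atrophy, had levels of 11.42 to 12.32 on SD and 9.10 to 11.35 on CR, and did not pass (-0.69, SE 0.22, adjusted p = 0.133 over 12). Relative to SRT2104, Trim63 on CR was at -0.08 over 12 arrays.

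FOXO factors switch on Trim63 in wasting muscle, and its start region is shown because it holds the FOXO letters TGTTTAC, in capitals, 194 bases before the start (RefSeq, GRCm38.p6, with the same window as above).
Trim63, chr4:134314870-134315169, plus strand: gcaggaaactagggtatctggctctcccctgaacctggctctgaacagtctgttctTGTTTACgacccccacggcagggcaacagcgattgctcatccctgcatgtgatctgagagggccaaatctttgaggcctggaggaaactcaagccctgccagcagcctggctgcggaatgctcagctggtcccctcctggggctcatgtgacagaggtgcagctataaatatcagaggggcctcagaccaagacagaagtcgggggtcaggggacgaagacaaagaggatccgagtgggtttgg
Both strands were searched, and 3.65% of all mouse promoters hold these letters.

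Gadd45b, a stress-induced regulator of kinase signaling, had levels of 8.20, 9.23, 8.88, 8.84 and 7.87 on SD, and 7.44, 7.49, 7.40, 7.93 and 7.56 on CR. SD replicate 5 was below CR replicate 4, so the groups overlapped. Gadd45b fell by 1.04 over 15 arrays (adjusted p = 0.0482) and by 1.10 over 12 (adjusted p = 0.0271). These calls were lost without any of 13 of the 15 arrays, with adjusted p up to 0.145, and without any of 5 of the 12, with adjusted p up to 0.0844, and over 8 arrays (adjusted p = 0.0596). Cdkn1a (p21), an inhibitor of the cell cycle, fell by 1.17 over 12 arrays (adjusted p = 0.0301) and did not pass over 15 (adjusted p = 0.211). That call was lost without any of 6 of the 12 arrays, with adjusted p up to 0.0941, and 2 further probes of Cdkn1a were not called. Both genes, like Cish, Egr1, Ier3, Cyp2e1 and Bcl2l11, were picked by the study on these arrays, so their direction is no independent evidence. Bcl2l11 (BIM), which promotes apoptosis, had a change of -0.52 over 12 arrays (adjusted p = 0.0709).

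Several glucocorticoid-induced genes varied widely among the SD mice themselves. Of 18 kept genes, 4 fell over 12 arrays (Arrdc2, Sgk1, Cdkn1a and Per1) and 0 over 15, against 1.47% and 0.374% of all genes. The median was -0.34 over 12 arrays and -0.11 over 15. Ddit4 (REDD1), an inhibitor of mTOR, shows the pattern. Its levels were 7.17, 10.95, 11.11, 10.99 and 8.33 on SD, against 8.46, 8.12, 7.82, 8.38 and 9.02 on CR. SD replicates 2, 3 and 4 stood far above every CR array, and SD replicates 1 and 5 did not. Ddit4 did not pass in either fit (-1.85, SE 0.61, adjusted p = 0.152 over 12). Mt1, a metallothionein, had levels of 10.70, 13.70, 14.04, 13.83 and 12.04 on SD and 11.89, 12.48, 13.03, 11.92 and 12.33 on CR, with the same 3 SD arrays high, and did not pass (adjusted p = 0.184 over 12). Arrdc2, an arrestin domain protein, fell by 1.10 over 12 arrays (SE 0.20, adjusted p = 0.0146), lost without SD replicate 2 (adjusted p = 0.0506) or SD replicate 3 (0.0515). Sgk1, a kinase that glucocorticoids induce, fell by 0.50 over 12 arrays (adjusted p = 0.0179), lost without SD replicate 3 or SD replicate 4 (adjusted p up to 0.0608). With all arrays it did not pass (-0.12, adjusted p = 0.797), and CR replicate 3 held the highest level, 14.22.

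**Figure D4:**
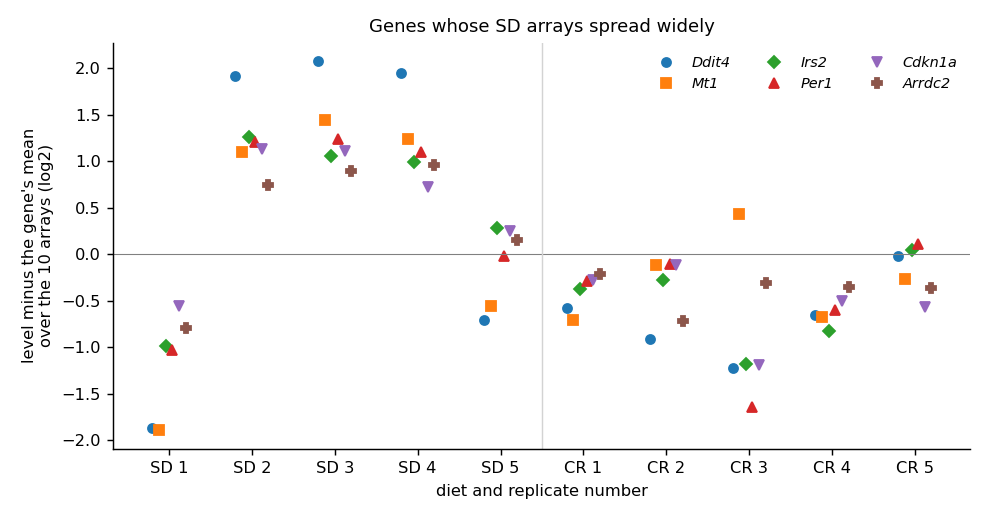
Log2 level minus the gene's mean over the 10 arrays (vertical axis) for 6 genes on each SD and CR array (horizontal axis, replicates in no order). SD replicates 2, 3 and 4 are above every CR array for all 6 genes, SD replicate 1 is low for all 6, and SD replicate 5 lies between.

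Other named falls were in genes with various roles. Samd4 (Smaug), an RNA-binding repressor of translation, had levels of 9.62, 9.79, 9.47, 9.62 and 9.63 on SD and 8.79, 8.52, 7.93, 8.62 and 8.45 on CR. The groups were apart by more than the range within SD. Samd4 fell by 1.16 over 15 arrays (adjusted p = 0.00711) and by 1.03 over 12 (adjusted p = 0.0022). Gna13, a G protein alpha subunit, had levels of 9.59, 9.74, 9.39, 9.25 and 9.39 on SD and 8.76, 8.61, 8.88, 8.59 and 8.67 on CR, again with no overlap. Gna13 fell by 0.77 over 15 arrays (adjusted p = 0.00711) and by 0.78 over 12 (adjusted p = 0.00234). Neither gene's calls depended on any single array.

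Cacna2d1, the alpha2delta subunit of the muscle calcium channel, had SD levels of 11.07 to 11.51 and CR levels of 9.35 to 10.28. It fell by 1.32 over 15 arrays (adjusted p = 0.0188) and by 1.14 over 12 (adjusted p = 0.019), and both calls were lost without SD replicate 2 (adjusted p up to 0.0639) or SD replicate 4. Myo10, a myosin of filopodia, fell by 0.95 and 0.93, lost in both fits without SD replicate 2 only (adjusted p up to 0.0563). Bach1, a heme-regulated repressor, fell by 0.85 and 0.87, lost without SD replicate 2 or 3 in both fits and over 15 arrays also without SD replicate 4 or CR replicate 5 (adjusted p up to 0.0589). Papola, the nuclear poly(A) polymerase, fell by 0.82 and 0.77, lost without any of 7 of the 15 and 6 of the 12 arrays (adjusted p up to 0.0871). Zhx2, a transcriptional repressor, fell by 0.80 and 0.62, lost without any of 7 of the 15 arrays (adjusted p up to 0.0916) and none of the 12. Mef2c, a myogenic transcription factor and the only called gene of 11 kept myogenic factors, fell by 0.68 over 12 arrays (adjusted p = 0.0321), lost without any of 6 of them (adjusted p up to 0.0947). A further Mef2c probe fell in both fits, by 1.61 and 1.38. Of all genes, 1.47% were called lower over 12 arrays.

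Connective tissue and vessel genes had a few falls. Rgs5, a regulator of G protein signaling found in pericytes, fell by 1.06 over 15 arrays (adjusted p = 0.0217) and by 0.86 over 12 (adjusted p = 0.0293), and these calls were lost without any of 4 of the 15 or 6 of the 12 arrays (adjusted p up to 0.0911). It was the only called gene of 10 kept genes of pericytes and smooth muscle, whose median was 0.03 over 12 arrays. The share of all genes called lower was 1.47% over 12 arrays and 0.374% over 15. Among 20 kept fibroblast and matrix genes 3 fell over 12 arrays and 0 over 15, against 1.47% and 0.374% of all genes. The list median over 12 arrays was -0.04, and without CR replicate 2 it was -0.20, with 14 of 20 lower and 4 called. Loxl1, which crosslinks elastin, fell by 0.65 over 12 arrays (adjusted p = 0.0219), lost without any of 4 arrays (adjusted p up to 0.0644). Col6a2 and Col15a1, chains of collagens around the fiber, each fell by 0.49 over 12 arrays (adjusted p = 0.0331), lost without any of 8 and 7 of the 12 arrays (adjusted p up to 0.0914) and over the 8 SD and CR arrays alone (0.0712 and 0.0593). In a piece of tissue, fewer cells of a type and less RNA per cell cannot be told apart.

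Adipocyte genes were higher on CR on average, and this followed CR replicate 2. All 12 kept adipocyte genes of a list of 20 had a higher mean on CR over 12 arrays, with a median change of 0.89, and none passed. Adipoq, the adipocyte hormone, had levels of 9.27, 8.95, 8.64, 8.84 and 8.57 on SD, and 9.03, 12.22, 10.47, 9.19 and 8.35 on CR. CR replicate 2 stood far above the rest, CR replicate 3 came next, and the other arrays overlapped. Without CR replicate 2 as well, 8 of the 12 genes were higher and the median was 0.10. The summed linear level of the 12 genes was 18650 to 26610 on SD and 21120 to 79610 on CR, and the adipocyte markers Fabp4 and Plin1 were detected on at most 1 array each. The 15 kept slow fiber genes had a median of 0.45 over 12 arrays (13 higher, 0 called) and -0.02 without CR replicate 2 (5 higher). Cyp2e1, a detoxifying enzyme abundant in liver and fat, had levels of 8.30, 8.93, 8.39, 8.24 and 7.91 on SD and 9.80, 12.25, 8.66, 8.63 and 8.20 on CR, and did not pass (1.35 over 12 arrays, adjusted p = 0.324).

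**Figure D5:**
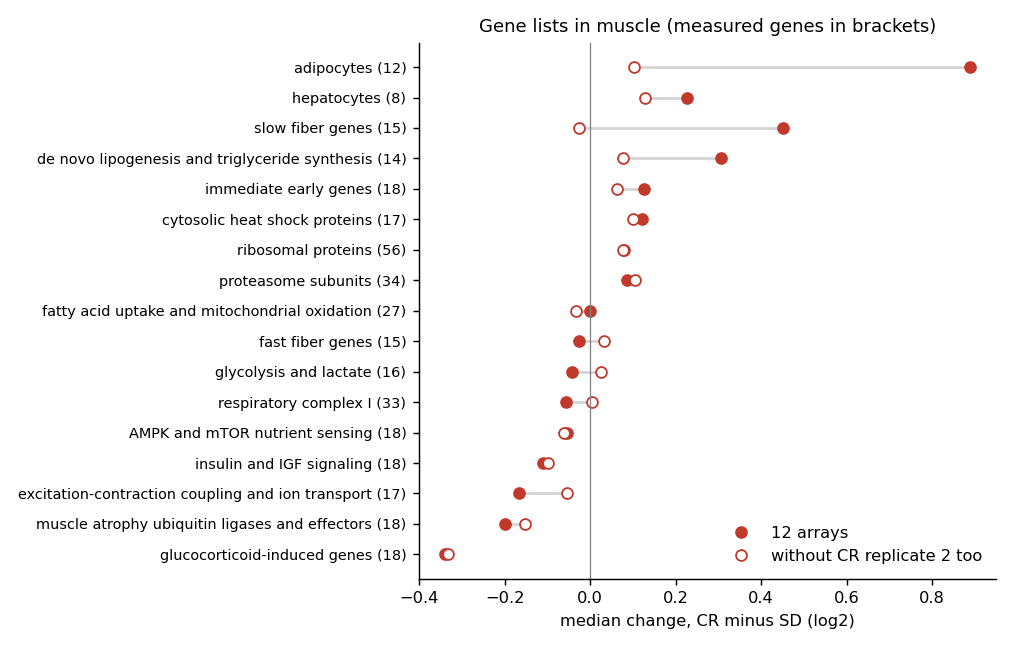
Median CR minus SD (log2, horizontal axis) of gene lists (vertical axis) over 12 arrays and over 11 arrays, the second without CR replicate 2. The adipocyte and slow fiber medians move from 0.89 and 0.45 to 0.10 and -0.02, whereas the glucocorticoid median is -0.34 and -0.33.

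Several lists of energy production genes, and those of the proteasome and fast fibers, gave no calls. None of 33 kept genes of respiratory complex I, 14 of complex IV, 15 of ATP synthase, 27 of fatty acid uptake and oxidation, 16 of glycolysis, 34 of the proteasome or 15 of fast fibers passed in either fit. Their medians over 12 arrays were -0.06, 0.00, -0.06, 0.00, -0.04, 0.09 and -0.03, against 0.01 for all genes. Over 15 arrays they were 0.15, 0.23, 0.17, -0.09, 0.07, 0.15 and 0.24, against 0.05 for all genes. Among 17 kept cytosolic heat shock genes only Hspb3, a small muscle chaperone, passed over 12 arrays (0.35, adjusted p = 0.0239), and that call was lost without any of 5 of them, with adjusted p up to 0.081, and over 15 arrays (0.61, adjusted p = 0.406). Nfkbia, the inhibitor of NF-kB, was the only called gene of 16 kept genes of that pathway. It fell by 0.73 over 12 arrays (adjusted p = 0.0428). That call was lost without any of 7 of those arrays (adjusted p up to 0.114), over 8 arrays (0.0739) and over 15 (0.311). Of all genes, 0.439% were called higher and 1.47% lower over 12 arrays.

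Sirt1, the deacetylase linked to calorie restriction, had levels of 8.66, 8.20, 8.04, 7.94 and 7.77 on SD and 8.03, 7.97, 8.43, 7.86 and 8.01 on CR. The CR arrays lay inside the SD range, and the change was -0.06 over 15 arrays (SE 0.15, adjusted p = 0.835) and -0.02 over 12 (SE 0.08, adjusted p = 0.929). Pdk4, the kinase that shuts pyruvate dehydrogenase in fasting, had levels of 12.01 to 13.16 on SD and 11.20 to 12.46 on CR and did not pass (-0.35 over 12, adjusted p = 0.48). Txnip, an inhibitor of glucose uptake, had levels of 11.52 to 11.96 on SD and 9.38 to 11.94 on CR and did not pass (-0.31 over 12, adjusted p = 0.434).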

How the data were processed

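Total RNA from muscle was labelled and hybridised to Illumina mouse bead arrays. The authors deposited non-normalized signal intensity per probe with a detection p-value per probe, whose columns name the group but not the replicate, and a score per probe and sample, which the authors made as the z of the natural log of the signal within each array. GenomeStudio 1.6.0 is named in the submitters' processing notes, and no source used here names a background correction. Here these scores were centred and scaled again over the 10792 kept probes of each array, then multiplied by the mean array spread of log2 signal, which gives log2 units and forces a common mean and spread on every array.

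The limma package (3.58.1, in R 4.3.3) fitted the 3 diets together over 15 muscle arrays, with empirical Bayes moderation and Benjamini-Hochberg adjustment at 0.05, and again over 12 arrays. Muscle and liver changes were compared in one fit with an interaction term. The test was checked on simulated data. Genes were named by rule: the 12 largest falls and all rises called in both fits without overlap, up to 4 members per gene list with the lowest adjusted p, genes named by the study, and Sirt1, Dbp, Pdk4 and Txnip. Mt1, Adipoq and Fbxo32 were chosen after seeing their values. All members and lists were chosen with earlier results of these data known. The study's Cfd is not analysed here. The labels describe 5 mice per group. The study's methods name Student's t-tests and Z-ratios. Alternatives were another background correction, quantile and median scaling, the scores unscaled, other detection filters, array weights, the methods' t-test, a replicate block, fewer arrays and leaving out each array. The number of arrays limits the precision. Promoters were matched by symbol to RefSeq.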

Additional observations from a re-analysis of the deposited data

Results flagged for a closer look

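Of 100 groups of 5 arrays examined, 9 held an array farther from the rest than Dixon's limit, where chance gives about 1 in 20. Genes entered partly through their calls over 12 arrays. That choice by itself favors genes in which CR replicate 3 or SD replicate 1 stands apart. The 9 groups therefore cannot be weighed against the chance rate. The figure given for each of the 9 is the gap to the nearest array as a share of the group's range. CR replicate 3 accounted for 5 of them: it had the lowest median correlation with its group (0.811 against 0.964 for the next, gap share 0.902), the lowest level of Prkaa2 (7.51 against 9.94, 0.845) and Csnk1d (9.02 against 9.38, 0.779), and the highest level of Hspb3 (11.76 against 10.33, 0.96) and Sgk1 (14.22 against 13.17, 0.78). SD replicate 1 had the lowest median correlation with its group (0.966 against 0.99, gap share 0.933). CR replicate 2 had the highest summed linear level of adipocyte markers (79610 against 37450, gap share 0.721), hepatocyte markers (5899 against 2001, 0.851) and endothelial markers (16380 against 10840, 0.806). What set these arrays apart was not tested.

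The change on CR differed between muscle and liver for 9 of 31 called genes measured in both tissues (limma interaction with 15 and with 12 muscle arrays). Of all probes compared, 4.78% passed with 15 muscle arrays and 11.1% with 12. The 31 genes had been called in muscle on these same arrays. That choice by itself raises their share, so it cannot be weighed against the share of all probes. Changes and adjusted p-values below are those with 15 muscle arrays. Values are the muscle change minus the liver change, in log2 units. It was 1.26 for Ier3 (adjusted p = 0.0283) and 0.60 for Hey1 (0.0148), the genes with a more positive change in muscle. It was -1.24 for Eif4ebp2 (adjusted p = 0.0137), -1.07 for Samd4 (0.0025), -0.87 for Myo10 (0.00785) and -1.03 for Zhx2 (0.0013). For Arntl it was -0.92 (adjusted p = 0.00496), for Mef2c -0.72 (0.0335) and for Col15a1 -0.59 (0.0435).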

How the results depend on the processing

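The count of called probes moved with the arrays used and the scaling. Against 49 probes over 15 arrays, it was 219 over 12 arrays, 97 over 13, 19 over the 10 SD and CR arrays, 166 over 8, 28 with neqc (normexp background correction and quantile normalization together), 23 with quantile scaling, 28 with no detection filter, 25 with detection on all 15 arrays, 299 with array weights, and 230 over 11 arrays, without CR replicate 2 (chosen after seeing the data). With the methods' t-test it was 1 after adjustment and 910 before over 10 arrays, and 1487 before over 8 (chosen after seeing the data). Leaving out 1 array gave 11 (without SD replicate 2) to 72 (without CR replicate 3). Over 12 arrays, leaving out 1 more gave 79 (without SD replicate 2) to 252 (without SRT2104 replicate 4). At an unadjusted p under 0.05, 1141 probes passed over 15 arrays and 1739 over 12.

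Differences between muscle and liver were 430 probes, 996 with 12 muscle arrays and 311 to 629 with 1 array left out. CR against SRT2104 gave 1152, 3674 over 12 arrays and 602 to 2137 with 1 array left out.

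The replicate numbers gave no sign of pairing: correlations computed for same-numbered SD and CR arrays ran from -0.135 to 0.149. So few values cannot exclude a pairing. For muscle and liver arrays with the same diet and number, the shared correlation was estimated at 0.052. With the replicate block, the replicate number as a term of the fit, 51 probes passed over 15 arrays, 140 over 12 and 1080 against SRT2104. Between tissues the fit used the shared correlation of 0.052 instead, and 541 probes passed.

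Some changes altered sign in a fit that did not call them. Dbp was 0.0606 with array weights, 0.12 over 11 arrays, -0.20 to 0.0463 with 1 of 15 arrays left out and -0.18 to 0.15 with 1 of 12 left out. Sgk1 over 15 arrays was 0.0296 with the scores unscaled and 0.0249 with no filter. Sirt1 was 0.0298 with neqc, 0.0225 with quantile scaling, -0.16 to 0.0700 with 1 of 15 left out and -0.0945 to 0.0487 with 1 of 12 left out. No named gene changed sign in a fit that called it, but calls were lost: of 18 named genes called over 15 arrays, 9 with neqc, 8 with quantile scaling, 7 over the 10 arrays, 7 with no detection filter, 5 with the scores unscaled, 17 with the adjusted t-test over 10 arrays and 13 over 8. Over 12 arrays the calls of Per1, Cish, Gadd45b, Id1, Nfkbia, Col6a2 and Col15a1 were lost both over 8 arrays and with the replicate block, that of Csnk1d over 8, and those of Cdkn1a, Irs2, Hspb3 and Loxl1 with the block. The cause of these shifts was not tested. Because signal columns carry no replicate number, background and scaling alternatives were run over 15 arrays only.

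Dim probes have signals close to background. The probes of Cux1, Usp1 and Ago2 were detected on 5 SD and 0 CR arrays, which gives bounds of only at least 1.05 to 1.17-fold.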
